A study of Mus musculus with 4 samples.

Results

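A library from proliferating mouse erythroblasts with a knockdown of Setd8 was compared with a library from control erythroblasts that had entered maturation. The genes described are those of the deposited block that sets these 2 libraries against each other, 19067 of the 23234 genes in the table, or 82.1%. The block runs in alphabetical order and ends at Slc2a13, so 4167 genes with later names have levels but no test here. The cells were mouse erythroblasts with extensive self-renewal: red cell precursors of the early fetus that keep dividing in culture. The knockdown cells carried a short hairpin RNA (shRNA) against Setd8 and were proliferating. The maturing control cells carried a non-targeting shRNA and had been in maturation medium for 6 h. Each group had 1 library, and the labels give neither a number of cultures nor the hairpin's sequence. Both the hairpin and the medium therefore differed between the libraries, and their effects cannot be told apart in this pair. A separate library, from proliferating cells with the non-targeting shRNA, took no part in the comparison, and its level is given beside each gene. Knockdown cells in maturation medium were not analysed here. The knockdown library was matched to its sample by the target and a number in its name together, since its title otherwise begins like that of a control.

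Red cell precursors divide a limited number of times while they load haemoglobin, rebuild their membrane and condense the nucleus. Setd8 is the methyltransferase that monomethylates lysine 20 of histone H4 (H4K20), a mark tied to chromatin compaction and the cell cycle. Gata2 and Gata1 are zinc finger factors that bind the same DNA motif. Gata2 acts in early progenitors and mast cells, and it is normally silenced as Gata1 drives the red cell programme. The study's title names Gata2 as a gene repressed by Setd8. The comparison sets knockdown cells that were not given maturation medium against control cells that were.

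Levels are FPKM, the fragments per kilobase of transcript scaled to each library's fragments. A call means a q-value of at most 0.05 in the authors' deposited table, which compares these 2 libraries and carries no replicate error of the conditions. Ratios on the log2 scale are knockdown over maturing control. A negative ratio means a lower level in the knockdown. The standard error (SE) printed with a ratio is that of the authors' model, recovered from its statistic, with a median of 0.45 over the 3486 tested genes whose 2 levels both reached 5 FPKM. The knockdown library had an estimated 0.927 times the depth of the maturing control, and the absolute depth is unknown. The estimate is the commonest ratio among 1864 genes below 0.03 FPKM in both libraries, held by 116 of them. Rn45s, the precursor of ribosomal RNA, was at 133 FPKM in the maturing control, 95.0 in the proliferating control and 190.5 in the knockdown. Its part in the results was not tested. The red cell markers Gata1, Klf1, Rhd and Epor were above 5 FPKM in all 3 libraries, while Alas2 of the same list was below it in each. The 12 red cell markers summed to 3126 FPKM in the maturing control, 1965 in the proliferating control and 841 in the knockdown. Of 11 tested, 8 were called higher in the maturing control, beside 4.38% of all tested genes. Lymphocyte markers summed to between 0.20 and 0.403 FPKM per library over 14 genes, and none reached 1 FPKM. The 15 markers of fibroblasts, endothelium and hepatocytes summed to 0.162 FPKM in the maturing control, 0.0892 in the proliferating control and 2.63 in the knockdown. Most of the last value was the transferrin gene Trf, past the end of the block, at 0.128, 0.0364 and 2.39 FPKM. In the block Pdgfra, a fibroblast receptor, was called higher in the authors' deposited table at 0.00460, 0.00886 and 0.207 FPKM. Their part in the results was not tested.

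Setd8 was lowest in the knockdown library, whose label names an shRNA targeting Setd8. Its locus is chromosome 5, 124889938 to 124912316 on mm9. The level of Setd8 was 25.9 FPKM in the maturing control, 25.1 in the proliferating control and 9.28 in the knockdown. The 2 control libraries were close to each other, and the knockdown library stood apart from both, 2.79-fold below the maturing control. The authors' deposited table gave a log2 ratio of -1.48 (SE 0.42) and a q of 0.00837. Gata2, on chromosome 6 from 88148657 to 88157026 (mm9), had a level of 29.6 FPKM in the maturing control, 54.9 in the proliferating control and 129 in the knockdown. Its 3 levels were spread out, with the proliferating control in the middle. The outer libraries were 4.38-fold apart. For this pair the authors' deposited table gives Gata2 a q of 1.18e-06 and a log2 ratio of 2.13 (SE 0.38). Gata1, the factor that follows Gata2 in red cell development, showed no such spread. Gata1 was at 65.5 FPKM in the maturing control, 52.8 in the proliferating control and 61.1 in the knockdown, with no call. The other genes that write, read or limit the H4K20 mark included the replication factor Pcna, which recruits the ligase that degrades Setd8, at 132, 123 and 110 FPKM in the same order. Of the 17 members of that list in the block 15 were tested, and Setd8 was the only one called in the authors' deposited table. Of all tested genes 11.6% were called in either direction.

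Over the whole block the authors' deposited table tested 9241 genes and called 667 higher in the knockdown, 7.22% of those tested. It called 405 higher in the maturing control, or 4.38%. These shares are the background for every count of members below, and together they come to 11.6%. In comparison, 9.05% of 11665 tested genes were called between the knockdown and the proliferating control, and 1.75% of 11298 between the maturing and the proliferating control. The 3 comparisons share libraries, so their counts are not independent. Many calls were of genes with little RNA: 445 called genes were below 1 FPKM in both libraries, and 209 higher and 131 lower calls were of genes at 5 FPKM or more in a library. Of the 7473 genes at 1 FPKM or more in a compared library, 399 (5.34%) were called higher in the knockdown and 228 (3.05%) higher in the maturing control, 8.39% together. The excess of higher calls was not seen with a filter on the proliferating control, which neither compared library decides. Among genes at 1 FPKM or more there, 195 were called higher in the knockdown and 214 higher in the maturing control. That library carries the same shRNA as the maturing control. The filter therefore drops genes that are near 0 in control cells and keeps genes that are near 0 in the knockdown alone. The near-equal counts thus follow in part from this choice of filter. By size alone, 450 of these 7473 genes (6.02%) were at least 2-fold higher in the knockdown, and 275 (3.68%) at least 2-fold higher in the maturing control, on the scale of FPKM + 1. With the filter on the proliferating control these counts were 262 and 262, under the same limit. The median log2 ratio of FPKM + 1 was -0.06 over the 7473 genes and -0.08 over the 6986 genes of the control filter.

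**Figure D1:**
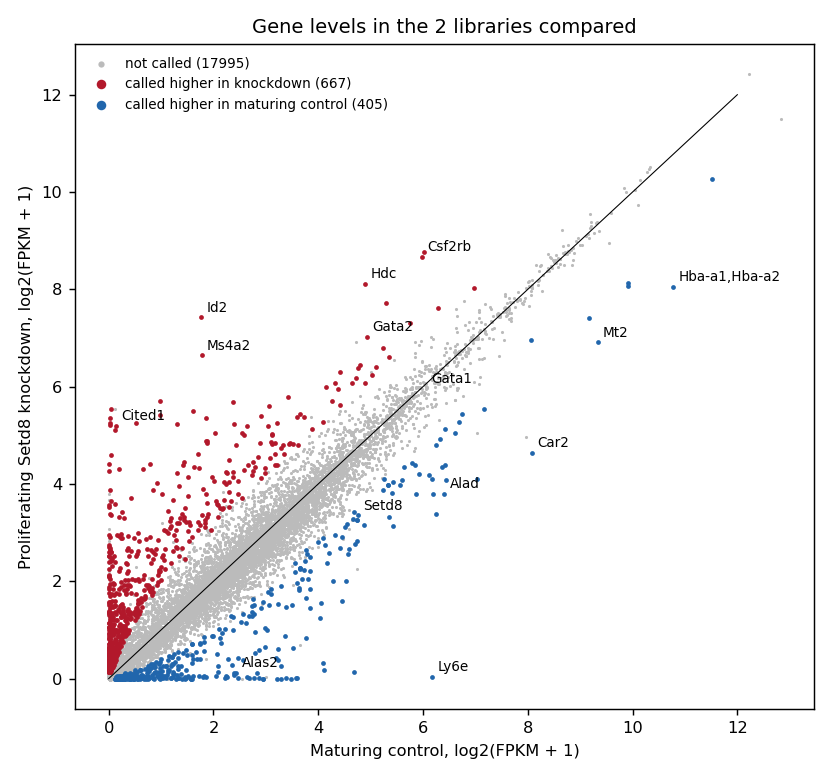
Each point is a gene of the block, with log2(FPKM + 1) in the maturing control on the horizontal axis and in the proliferating Setd8 knockdown on the vertical axis, and the line marks equal levels. The 667 genes called higher in the knockdown and the 405 called higher in the maturing control lie on either side, and both include many genes near 0 in 1 library.

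The promoters of 4 genes that stand at the outer edges of the comparison are shown because they hold the motif bound by Gata factors. Ms4a2 and Cd200r3, a pair of mast cell and basophil receptors, were called higher in the knockdown. Alas2, the first enzyme of red cell haem synthesis, and Hemgn, a nuclear protein of red cell precursors, were called higher in the maturing control. Each run is the 250 bases before the gene's start, 5′ to 3′ on the gene's strand, from RefSeq on GRCm38.p6, whereas the deposited loci are on mm9. Capitals mark AGATAA or TGATAA, read on either strand, so TTATCT and TTATCA are the same motifs on the other strand.
Ms4a2, chr19:11623720-11623969, minus strand: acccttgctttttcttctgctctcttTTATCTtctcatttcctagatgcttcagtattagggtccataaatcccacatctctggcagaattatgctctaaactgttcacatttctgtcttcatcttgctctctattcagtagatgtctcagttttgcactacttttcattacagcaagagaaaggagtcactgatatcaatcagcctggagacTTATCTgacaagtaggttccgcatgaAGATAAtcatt
Cd200r3, chr16:44943428-44943677, plus strand: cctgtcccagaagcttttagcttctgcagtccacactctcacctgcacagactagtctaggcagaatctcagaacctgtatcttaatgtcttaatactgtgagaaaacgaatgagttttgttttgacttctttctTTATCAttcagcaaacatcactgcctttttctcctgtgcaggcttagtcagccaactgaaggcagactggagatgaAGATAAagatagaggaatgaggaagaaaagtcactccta
Alas2, chrX:150547167-150547416, plus strand: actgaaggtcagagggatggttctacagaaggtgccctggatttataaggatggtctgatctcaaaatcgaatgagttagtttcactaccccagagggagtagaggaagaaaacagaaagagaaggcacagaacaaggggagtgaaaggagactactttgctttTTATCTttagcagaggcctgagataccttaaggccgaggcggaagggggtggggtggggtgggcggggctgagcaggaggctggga
Hemgn, chr4:46404184-46404433, minus strand: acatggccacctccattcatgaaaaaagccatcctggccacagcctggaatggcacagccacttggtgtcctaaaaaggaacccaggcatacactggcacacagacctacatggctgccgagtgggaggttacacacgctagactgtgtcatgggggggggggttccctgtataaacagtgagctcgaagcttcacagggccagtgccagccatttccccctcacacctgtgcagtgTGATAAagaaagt

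The Ms4a2 promoter held 3 matches, that of Cd200r3 held 2, and those of Alas2 and Hemgn held 1 each. The genes were picked after their values and matches were seen. Of all 32851 promoters of this length in the table, 16.6% held a match, so a match is common and marks no site of binding. Among the 5959 measured genes matched to a promoter, 11.4% held a match in at least 1 promoter. Shares are not compared between called groups here, and only 79.7% of the 7473 measured genes had a promoter matched by name.

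Red cell genes were on the maturing side. In the authors' deposited table all 7 tested globin entries and 6 of 15 tested haem synthesis genes were called higher in the maturing control, with none called in the other direction in either list, beside a background of 4.38%. In bulk RNA, fewer cells of a type and less RNA per cell cannot be told apart. Hba-a1 and Hba-a2, the adult alpha-globin genes, share an entry that was at 1747 FPKM in the maturing control, 843 in the proliferating control and 265 in the knockdown. The adult beta-globins Hbb-b1 and Hbb-b2 share another, which was at 963, 798 and 279.6 FPKM in the same order. For alpha-globin the proliferating control lay well below the maturing control, while for beta-globin the 2 controls were near each other and the knockdown was low against both. The distances from maturing control to knockdown were 6.59-fold for alpha-globin, with a q of 1.75e-07 in the authors' deposited table, and 3.44-fold for beta-globin, with a q of 0.000354. The early globin Hbb-bh1, normally used in embryonic red cells, was at 13.3, 12.5 and 3.65 FPKM. Globin copies are near-identical and share fragments, so the split between entries is uncertain.

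Haem synthesis runs through a chain of enzymes, and calls fell on both early and late steps. Alas2 was at 4.41 FPKM in the maturing control, 4.55 in the proliferating control and 0.0900 in the knockdown. The next enzyme, Alad, was at 83.5, 38.0 and 12.9 FPKM in the same libraries. For Alas2 the controls were alike and the knockdown was low, while Alad stepped down through all 3 libraries. In the authors' deposited table the log2 ratio was -5.61 (SE 0.60) for Alas2 and -2.70 (SE 0.44) for Alad. Further down the pathway, Cpox was at 96.5, 64.7 and 32.0 FPKM, and Fech, which inserts the iron, was at 48.7, 36.7 and 19.3 FPKM. Both were called, with a q of 0.000895 for Cpox and 0.0130 for Fech in the authors' deposited table. Abcb10, a mitochondrial transporter that partners the iron importer, was also called and is described further on. Alas1, the form of the first enzyme used in other tissues, was at 2.49, 2.35 and 1.87 FPKM and was not called. Slc25a39 was the one of the 15 with a higher value in the knockdown, at 13.8, 12.95 and 18.5 FPKM, and it was not called either. The median log2 ratio of FPKM + 1 over the haem list was -0.90, and all 15 members also passed the control filter.

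**Figure D2:**
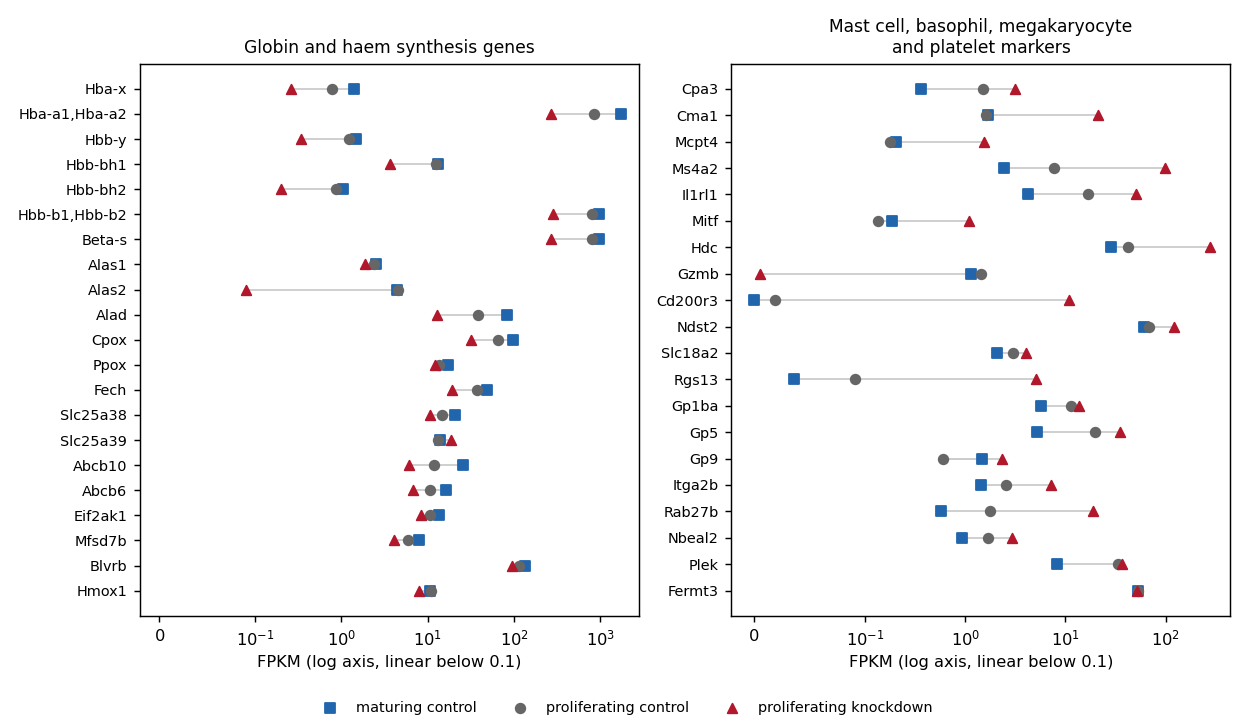
Levels in FPKM of list members at 1 FPKM or more in a compared library, 1 row per gene and 1 library per marker, on a log axis that is linear below 0.1. In the left panel all 7 globin entries have their knockdown marker at the low end, and in the right panel Ms4a2, Hdc, Cma1 and Rab27b have it at the high end.

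Some genes for the membrane and red cell transcription, and 1 iron gene, were also called higher in the maturing control. The authors' deposited table called 6 of 20 tested membrane and skeleton genes higher in the maturing control, beside a background of 4.38%. It also called 2 of 14 tested erythroid transcription factors and 1 of 13 tested iron genes in that direction. The 1 iron call and the 2 transcription factor calls are too few to set those lists apart from the background. None in these lists was called higher in the knockdown. Rhd, a blood group antigen carrier, was at 41.9 FPKM in the maturing control, 14.4 in the proliferating control and 7.84 in the knockdown. Epb4.9, the actin-bundling protein dematin, was at 10.3, 3.07 and 1.87 FPKM. For Rhd and Epb4.9 the proliferating control was nearer to the knockdown than to the maturing control. Add2, which encodes beta-adducin of the membrane skeleton, had another order, at 9.31, 9.76 and 0.842 FPKM, with the controls alike. The water channel Aqp1 stood at 1.73 FPKM in the maturing control and was listed at 0 in the knockdown. Rhag, the partner of Rhd in the membrane, ran the other way, at 56.2, 77.9 and 119 FPKM, and missed the threshold with a q of 0.0571 in the authors' deposited table. The median log2 ratio of FPKM + 1 was -0.53 over the 19 membrane genes of the control filter.

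Klf1, the factor that activates adult beta-globin, was at 84.9 FPKM in the maturing control, 60.1 in the proliferating control and 34.1 in the knockdown. Ldb1, which bridges Gata1 complexes on DNA, was at 39.3, 30.8 and 14.8 FPKM. The authors' deposited table called both, at a q of 0.0180 for Klf1 and 0.0345 for Ldb1. The other factors of the list were not called, among them Gfi1b at 107, 80.7 and 54.8 FPKM, Lmo2 at 24.5, 36.2 and 27.9 FPKM and Nfe2 at 25.9, 39.6 and 22.9 FPKM. The iron storage subunit Ftl1 was the 1 called iron gene, at 2930, 1619 and 1226 FPKM. Past the end of the block, where only levels are given, Zfpm1, which encodes the Gata1 partner Fog1, was at 38.6, 22.7 and 5.70 FPKM. The transferrin receptor Tfrc was at 44.3, 34.0 and 18.0 FPKM, and Slc4a1, the anion exchanger of the red cell membrane, was at 2.34, 0.792 and 0.268 FPKM. In Zfpm1, Tfrc and Slc4a1 the order was maturing control, proliferating control, knockdown from high to low.

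Progenitor genes stood on the knockdown side. Of 22 tested genes linked to progenitors and Gata2, the authors' deposited table called 9 higher in the knockdown, beside a background of 7.22%, and 1 higher in the maturing control. The list was put together with earlier results of these libraries known, so its direction is no independent evidence. Id2, which blocks basic helix-loop-helix factors, was at 2.41 FPKM in the maturing control, 5.37 in the proliferating control and 171 in the knockdown. Hdc, which makes histamine, was at 28.7, 42.5 and 277 FPKM. Erg, an Ets factor of stem cells and megakaryocytes, was at 0.722, 1.78 and 6.51 FPKM. In these 3 the larger gap was between the proliferating control and the knockdown. Hhex, a homeobox factor, had the opposite spacing, at 0.294, 5.14 and 5.41 FPKM, with the 2 proliferating libraries alike. Myb, which keeps progenitors dividing, was at 18.9, 42.2 and 66.4 FPKM, a 3.52-fold span with a q of 0.000206 in the authors' deposited table. Fli1, a further Ets factor, was at 0.630, 1.49 and 2.79 FPKM and was called with a q of 0.00158. Cited1 and Cited2, partners of the coactivators CBP and p300, were also called higher in the knockdown, at 0.101, 0.127 and 35.7 FPKM and at 2.25, 5.16 and 7.33 FPKM. Cited4, from the same family, was the call in the other direction, at 71.5, 26.2 and 16.2 FPKM with a q of 8.65e-05 in the authors' deposited table.

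Kit, the receptor for stem cell factor, had the levels 25.5, 58.0 and 120.1 FPKM, a 4.70-fold span, but its test was marked as failed in the authors' deposited table. Runx1 was at 5.92, 4.77 and 3.04 FPKM and Sfpi1, which encodes PU.1, at 27.9, 21.5 and 22.3 FPKM, neither of them called. The median log2 ratio of FPKM + 1 over the 20 members of the control filter was 0.63, and over all 30 members in the block it was 0.08, since several were near 0 everywhere. Past the end of the block the intermediate filament gene Vim, which red cell precursors normally lose, was at 4.24, 17.8 and 163 FPKM.

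Haematopoietic cytokine receptors were called in both directions. Of 13 tested receptors, the authors' deposited table called 7 higher in the knockdown and 2 higher in the maturing control. Csf2rb, the shared beta chain of the receptors for GM-CSF, IL-3 and IL-5, was at 62.1 FPKM in the maturing control, 114 in the proliferating control and 406 in the knockdown. Its neighbour Csf2rb2, the mouse copy that serves IL-3 alone, was at 63.4, 117 and 435 FPKM. The copies are similar in sequence, so their separate levels are uncertain. The distances of 6.53-fold and 6.86-fold were called with a q of 6.85e-12 for Csf2rb and 1.67e-12 for Csf2rb2 in the authors' deposited table. The IL-6 receptor Il6ra was at 0.0184, 0.00717 and 1.33 FPKM and the IL-4 receptor Il4ra at 0.753, 1.27 and 2.53 FPKM, both called higher in the knockdown. Epor, the erythropoietin receptor on which red cell precursors depend, ran the other way, at 25.6, 17.6 and 8.58 FPKM, with a q of 0.00984. Il9r was at 11.6, 13.2 and 0.623 FPKM, with a test marked as failed.

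Markers of mast cells and basophils, a lineage that shares its progenitors with red cells, were higher in the knockdown in most tested members. The authors' deposited table called 10 of 15 tested markers higher in the knockdown and 1 higher in the maturing control. The 25 markers matched in the table summed to 243 FPKM in the maturing control, 368 in the proliferating control and 985 in the knockdown, with 3, 5 and 2 of them listed at 0. Most of the sum in the maturing control came from members whose levels are not given here, so it is no measure of mast cell RNA. Ms4a2, the beta chain of the high-affinity IgE receptor, was at 2.42, 7.65 and 99.3 FPKM. Il1rl1, the receptor for IL-33, was at 4.19, 16.7 and 50.5 FPKM. Cd200r3, an activating receptor of these cells, was listed at 0 in the maturing control and stood at 0.0189 and 10.8 FPKM in the proliferating control and the knockdown. Each of these was above both controls in the knockdown library. The chymase Cma1 was at 1.69, 1.61 and 21.0 FPKM, a 12.4-fold distance. Cpa3, the carboxypeptidase of mast cell granules, was at 0.365, 1.5 and 3.16 FPKM and had a q of 9.94e-07 in the authors' deposited table, a call. The lineage factor Mitf was at 0.184, 0.135 and 1.09 FPKM. Granzyme B (Gzmb), a protease of killer cells and some mast cells, was the exception, at 1.14, 1.43 and 0.00592 FPKM. Past the end of the block the tryptases Tpsab1 and Tpsb2, whose similar sequences can share fragments, were at 0.0662 and 0.0581 FPKM in the maturing control and 40.4 and 7.37 FPKM in the knockdown. Over the 8 members of the control filter the median log2 ratio of FPKM + 1 was 2.32, and over all 22 members in the block it was 0.59.

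Megakaryocyte and platelet markers formed a smaller group. Of 9 tested markers, the authors' deposited table called 5 higher in the knockdown and none in the other direction. Gp5, a subunit of the platelet receptor for von Willebrand factor, was at 5.20 FPKM in the maturing control, 19.5 in the proliferating control and 35.4 in the knockdown. The platelet signalling protein Plek was at 8.25, 33.4 and 37.0 FPKM. Rab27b, a GTPase of granule release that mast cells also use, was at 0.578, 1.75 and 18.9 FPKM. Plek was thus alike in both proliferating libraries, while Rab27b stood out in the knockdown. Itga2b, the integrin chain also known as CD41, was at 1.44, 2.54 and 7.25 FPKM, with a q of 0.000125 in the authors' deposited table. Fermt3, which activates integrins, was between 52 and 53.2 FPKM, level in all 3 libraries. The 21 markers summed to 81.6, 129 and 174 FPKM, and 8, 9 and 5 of them were listed at 0. Among granulocyte and monocyte markers the Fc receptor Fcgr3 was at 3.55, 3.59 and 10.4 FPKM, Csf1r at 0.254, 0.328 and 0.880 FPKM and Cd68 at 1.22, 0.855 and 0.377 FPKM. The 21 markers of that list summed to 5.14, 4.9 and 11.9 FPKM. The part of such cells in the results was not tested.

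**Figure D3:**
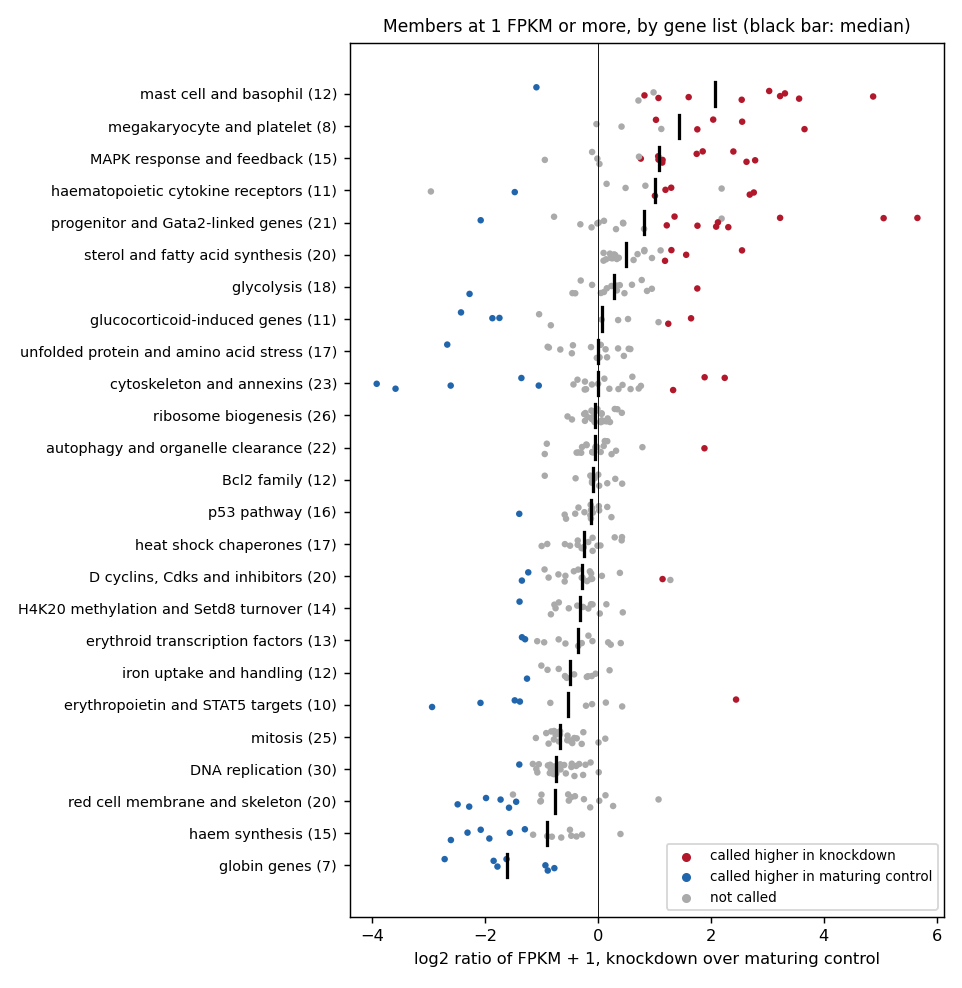
Each point is a member at 1 FPKM or more in a compared library, placed by its log2 ratio of FPKM + 1, knockdown over maturing control, with 1 row per gene list, its number of members in brackets and its median as a black bar. Globin and haem lists sit at the low end and mast cell and megakaryocyte lists at the high end, while ribosome biogenesis, autophagy and cytoskeleton have medians near 0.

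The MAPK cascade carries growth factor signals to the nucleus, where immediate early genes respond within minutes and feedback inhibitors follow. The authors' deposited table called 14 of 22 tested genes of this list higher in the knockdown and 1 higher in the maturing control. Dusp6, the phosphatase that switches off ERK, was at 1.02 FPKM in the maturing control, 6.23 in the proliferating control and 12.9 in the knockdown. The immediate early factor Egr1 was at 0.0382, 3.12 and 4.47 FPKM. The Ets factor Etv5 was at 0.0637, 1.37 and 2.57 FPKM. In these 3 genes the maturing control stood far below both proliferating libraries. Ier3, an early response gene linked to survival, was at 1.87, 6.69 and 16.8 FPKM, and Rgs1, a brake on G-protein signals, was at 0.284, 2.98 and 3.65 FPKM. The log2 ratio in the authors' deposited table was 3.66 (SE 0.50) for Dusp6 and 3.16 (SE 0.52) for Ier3. Rgs2 and Ccnd1 had a different order, with both controls low: Rgs2 was at 0.0993, 0.0779 and 1.31 FPKM and cyclin D1 at 0.208, 0.192 and 1.67 FPKM. Of the 14 genes called higher, 10 were at 1 FPKM or more in a compared library. Dusp4, from the same family as Dusp6, was the call in the other direction, below 1 FPKM in both compared libraries. Its log2 ratio in the authors' deposited table was -1.98 (SE 0.58). The MAPK phosphatase Dusp1, counted in the glucocorticoid list below, was also called higher in the maturing control. Several classical members did not follow the count either. Myc was at 28.6, 45.5 and 28.4 FPKM, Ier5 at 6.32, 6.15 and 6.45 FPKM and Junb at 14.9, 9.71 and 7.26 FPKM, none of them called. Past the end of the block the ERK inhibitors Spred1 and Spred2 were at 1.09 and 0.931 FPKM in the maturing control, 7.48 and 6.13 in the proliferating control and 9.31 and 5.29 in the knockdown. Over the 10 members of the control filter the median log2 ratio of FPKM + 1 was 1.24. It was 0.60 over all 25 members in the block and 0.38 over members at 5 FPKM or more in a compared library.

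Sterol and fatty acid synthesis genes shared a direction, mostly with small sizes. All 20 members at 1 FPKM or more, each of them also above 1 FPKM in the proliferating control, had a higher value in the knockdown than in the maturing control. Of all 7473 measured genes, 3175 had a higher value in the knockdown. The median log2 ratio of FPKM + 1 over the 20 members was 0.50. The authors' deposited table called 4 of 19 tested genes higher in the knockdown. Insig1, which holds the sterol sensor in the endoplasmic reticulum, was at 7.34 FPKM in both controls and 47.9 in the knockdown. Scd2, a fatty acid desaturase, was at 36.7 FPKM in the maturing control, 126 in the proliferating control and 110 in the knockdown. Scd2 was thus similar in the proliferating libraries and lower in the maturing control, and Insig1 stood out in the knockdown. Among genes that were not called, the proliferating control was often the highest library. Idi1 was at 38.7, 99.2 and 41.5 FPKM and Fdft1, the squalene synthase, at 7.24, 17.8 and 8.55 FPKM, so that the knockdown lay nearer to the maturing control.

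**Figure D4:**
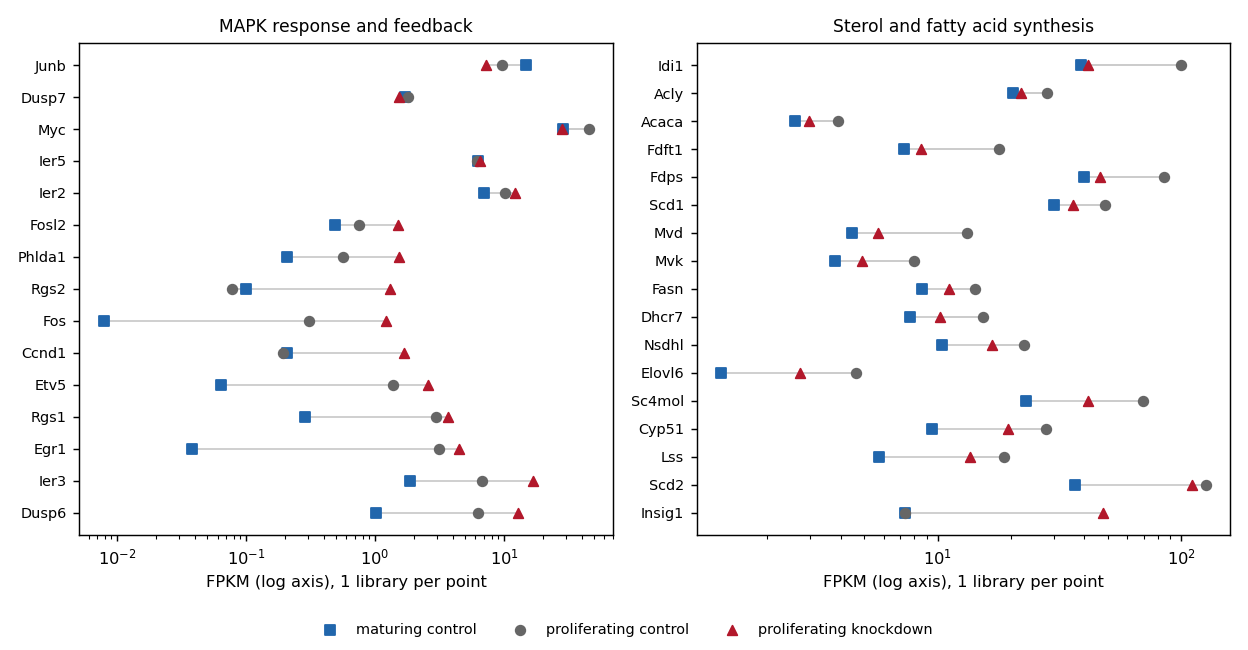
Levels in FPKM on a log axis for the 15 MAPK response genes (left) and 17 of the 20 sterol and fatty acid genes (right) at 1 FPKM or more in a compared library, with 3 not shown, sorted by the ratio of knockdown to maturing control, 1 library per marker. In the lower rows on the left the maturing control lies below both proliferating libraries, and on the right the proliferating control is the highest marker for Idi1, Fdft1, Fdps and Mvd.

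Erythropoietin acts through Epor and the factor STAT5 and induces its own inhibitors. Of 10 tested genes of that list, the authors' deposited table called 4 higher in the maturing control and 1 higher in the knockdown. Fam132b, the hormone erythroferrone that frees iron stores, was at 4.11 FPKM in the maturing control, 0.627 in the proliferating control and 0.209 in the knockdown. The growth arrest gene Gadd45g was at 6.66 and 2.63 FPKM in the maturing and proliferating controls and listed at 0 in the knockdown. The kinase gene Pim1 was at 41.9, 28.4 and 15.5 FPKM and, beside Epor, was the fourth call. Osm, which encodes the cytokine oncostatin M, was the call in the other direction. Its level was 0.0301 FPKM in the maturing control and 4.61 in the knockdown, and it was listed at 0 in the proliferating control. Cish, a direct STAT5 target, was at 14.8, 4.80 and 7.81 FPKM and was not called. Past the end of the block the STAT inhibitor Socs1 was at 7.52, 11 and 26.6 FPKM. The list median of -0.53 turned to 0.02 when the 4 measured members past the end were added.

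Glucocorticoid keeps erythroblasts self-renewing in culture, and its target genes did not share a direction. The authors' deposited table called 3 of 12 tested genes higher in the knockdown and 3 higher in the maturing control. Fkbp5, a cochaperone of the receptor, was at 6.90 FPKM in the maturing control, 17.2 in the proliferating control and 17.7 in the knockdown. Sgk1, a kinase, was at 0.143, 0.381 and 2.58 FPKM. Mt1 and Mt2, which bind zinc and copper and respond to metals as well as to glucocorticoid, were at 573 and 644 FPKM in the maturing control, 299.5 and 216 in the proliferating control and 170.2 and 119 in the knockdown. Dusp1, a MAPK phosphatase, was at 3.84, 1.19 and 0.325 FPKM. Fkbp5 was thus low in the maturing control alone, while the metallothioneins and Dusp1 were highest there. The receptor Nr3c1 was at 3.51, 4.97 and 3.73 FPKM and was not called.

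Genes of cell division had lower values in the knockdown with 1 call. Of 30 DNA replication genes, 29 had a higher value in the maturing control, beside 4298 of all 7473 measured genes. The median log2 ratio of FPKM + 1 was -0.75, beside -0.06 over all 7473 measured genes. Of 25 mitosis genes, 23 did so, with a median of -0.67. The authors' deposited table called Cdc6, the loader of the replicative helicase, at 11.5 FPKM in the maturing control, 6.48 in the proliferating control and 3.76 in the knockdown, with a q of 0.00577. No other replication gene and no mitosis gene was called by Cuffdiff, the 1 tool whose calls were used. The helicase subunit Mcm5 was at 36.3, 26.5 and 16.5 FPKM, and the proliferation marker Mki67 at 40.6, 29.1 and 25.1 FPKM. Cyclin A2 (Ccna2) was at 38.0, 31.9 and 21.7 FPKM. All 3 had the order seen for Cdc6, with sizes within about 2 SE of the authors' model for Mki67 and Ccna2 (log2 ratios of -0.69, SE 0.37, and -0.80, SE 0.43). Among D cyclins, Cdks and their inhibitors, the authors' deposited table called 2 of 22 tested genes higher in the knockdown and 3 higher in the maturing control. Those higher in the knockdown were cyclin D1, given above, and the inhibitor Cdkn1c at 0.0562, 0.0980 and 0.520 FPKM. Cyclin D2 (Ccnd2) was at 5.66, 8.75 and 1.83 FPKM and was called lower in the knockdown. The inhibitors Cdkn2a and Cdkn2b were at 2.36 and 0.666 FPKM in the maturing control, 3.21 and 1.14 in the proliferating control and 0.320 and 0.0847 in the knockdown, and both were called lower in the knockdown. The inhibitor Cdkn1b was at 5.79, 4.80 and 7.88 FPKM and was not called.

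Lists of stress and organelle genes had few calls. The authors' deposited table called 1 of 17 tested p53 pathway genes, Gadd45a, at 21.8, 24.8 and 7.68 FPKM. The p53 target Cdkn1a, which encodes p21, was at 29.5, 35.8 and 19.2 FPKM, and Mdm2 was at 5.74, 7.44 and 5.81 FPKM, neither of them called. Of 19 tested genes of unfolded protein and amino acid stress only Phgdh, the first enzyme of serine synthesis, was called in the authors' deposited table. Phgdh was at 5.39 FPKM in the maturing control, 11 in the proliferating control and 0.00434 in the knockdown, while the next enzymes Psat1 and Psph were at 27.9 and 6.25 FPKM in the maturing control and 42.1 and 6.50 FPKM in the knockdown. None of 17 tested heat shock genes and none of 26 tested ribosome biogenesis genes was called. Hspa8 stood at 462, 536 and 385 FPKM and Npm1, a nucleolar chaperone, at 133, 185 and 139 FPKM. Of 13 tested Bcl2 family genes only Bik was called, higher in the knockdown at 0.120, 0.672 and 0.953 FPKM. Among autophagy genes the call was Alox15, a lipoxygenase that opens organelle membranes in reticulocytes, listed at 0 in the maturing control and at 0.00523 and 2.70 FPKM in the proliferating libraries, control and knockdown. In glycolysis the authors' deposited table called 2 of 21 tested genes higher in the knockdown and 2 higher in the maturing control. The glucose transporter Slc2a1 was at 0.878, 1.73 and 5.36 FPKM and the enolase Eno2 at 0.143, 0.162 and 0.464 FPKM. On the maturing side the red cell pyruvate kinase Pklr was at 18.3, 12.8 and 3.0 FPKM and the aldolase Aldoc at 0.974, 1.18 and 0.170 FPKM. The other pyruvate kinase gene Pkm2 was at 72.4, 110 and 125 FPKM and was not called.

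The largest changes among genes at 5 FPKM or more were often from or to levels near 0. Beside Id2 and Cited1, the highest ratios included Gpr65, an acid-sensing receptor of blood cells, at 0.0354 FPKM in the maturing control, 1.35 in the proliferating control and 45.7 in the knockdown. Pmp22, a membrane protein first known from myelin, was at 0.0889, 0.162 and 33.6 FPKM. The lysosomal enzyme gene Hexa was at 0.982, 1.01 and 41.9 FPKM. In all of these the knockdown library stood far above both controls. Serpinb1a, Serpinb1b and Serpinb1c, neighbouring inhibitors of granule proteases on chromosome 13, were at 40.1, 37.0 and 35.8 FPKM in the knockdown and below 0.03 FPKM in the maturing control, and these copies can share fragments. The sulfotransferase gene Chst1 was at 0.965, 1.75 and 51.4 FPKM, and the GTPase gene Rab31 at 0.441, 0.445 and 37.0 FPKM. Dtx4, a ligase of the Notch pathway, was at 0.0319, 0.0408 and 23.2 FPKM.

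At the other end Ly6e, a lipid-anchored surface protein, was at 71.2 FPKM in the maturing control, 76.6 in the proliferating control and 0.0297 in the knockdown. Car2, the abundant carbonic anhydrase of red cells, was at 269, 175 and 24.0 FPKM. Hemgn was at 15.98, 6.11 and 0.251 FPKM. Ly6e was level in the controls, whereas Car2 and Hemgn also differed between them. The log2 ratio in the authors' deposited table was -3.49 (SE 0.39) for Car2 and -5.99 (SE 0.48) for Hemgn. S100a10, a partner of annexin A2, was at 16.2, 25.5 and 0.138 FPKM, and Parvb, which links integrins to actin, at 11.1, 9.74 and 0.00462 FPKM. Cox6b2, a cytochrome oxidase subunit, was at 24.8, 15.8 and 0.10 FPKM. Fabp5, a fatty acid carrier, and Fgf13, a growth factor relative that stays inside the cell, were at 6.75 and 8.80 FPKM in the maturing control and listed at 0 in the knockdown. The cytidine deaminase gene Cda was at 9.40, 7.30 and 0.0138 FPKM.

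Some genes were called between these 2 libraries and in neither of the other 2 comparisons of the table. The 8 with the largest ratios at 5 FPKM or more had the proliferating control between the compared libraries, an order that this choice of genes favours. On the knockdown side Kcne3, a potassium channel subunit, was at 4.86 FPKM in the maturing control, 13.6 in the proliferating control and 32.2 in the knockdown. Anxa2, a calcium-dependent membrane binder, was at 1.84, 5.39 and 12.5 FPKM. Msn, which encodes moesin and ties actin to the membrane, was at 20.3, 39.3 and 78.0 FPKM. On the fold scale each of the 3 had steps of similar size between neighbouring libraries. For Msn the q in the authors' deposited table was 1.85e-05 between the outer libraries, 0.101 for knockdown against proliferating control and 0.156 for maturing against proliferating control. Phf13, a reader of methylated histone H3, was the fourth, at 1.56, 3.60 and 8.87 FPKM. On the maturing side Abcb10 was at 25.8, 11.9 and 6.07 FPKM, and Mt4, a further metallothionein, at 86.1, 31.5 and 16.01 FPKM. The sialomucin gene Podxl was at 39.9, 20.1 and 8.97 FPKM, and the sterol exporter gene Abcg4 at 9.43, 4.58 and 1.79 FPKM. For Abcb10 the 3 q-values in the authors' deposited table were 2.62e-05 between the outer libraries, 0.225 for knockdown against proliferating control and 0.0721 for maturing against proliferating control.

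**Figure D5:**
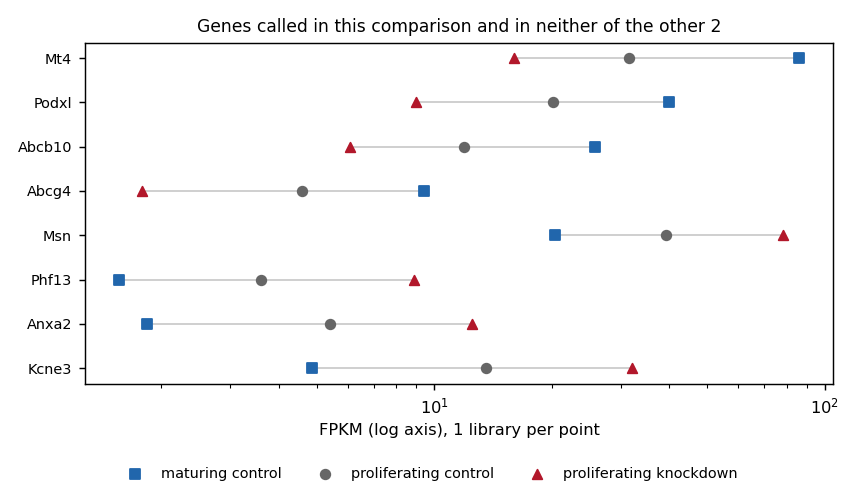
Levels in FPKM on a log axis of the 8 genes with the largest ratios among those called between knockdown and maturing control and in neither other comparison, 1 library per marker. Mt4, Podxl, Abcb10 and Abcg4 run from knockdown up to maturing control and Msn, Phf13, Anxa2 and Kcne3 from maturing control up to knockdown, with the proliferating control between.

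Some called genes also lay near each other. With a rule chosen after the values were seen, runs were formed of at least 3 genes called in the same direction and at most 100 kb apart. Genes between them that were not called, or were called in the other direction, were skipped. The 28 runs held 108 of the 1072 called genes, with 19 runs on the knockdown side and 9 on the maturing side. Of the 28 runs, 20 had a gene at 5 FPKM or more in a compared library. The runs give no test, since neighbouring gene copies share sequence and fragments. The mast cell protease locus on chromosome 14 (56560287 to 56681147, mm9) held 6 such genes, with Cma1 the highest and Cma2 and Mcpt4 at 1.41 and 1.53 FPKM in the knockdown. On chromosome 16 (44765848 to 44981493) the 4 receptor genes Cd200r1, Cd200r4, Cd200r2 and Cd200r3 were at 5.51, 6.74, 4.29 and 10.8 FPKM in the knockdown and below 0.01 FPKM or listed at 0 in the maturing control. Homeobox genes of the Hoxc locus on chromosome 15 (102839992 to 102867283) were called together, with Hoxc4 at 0.00463, 0.0144 and 5.06 FPKM and Hoxc5 at 0.00310, 0.00477 and 1.85 FPKM. On chromosome 10, Cd164, a sialomucin of progenitor adhesion, was at 38.2, 40.8 and 210.1 FPKM beside Mical1 at 0.146, 0.679 and 9.03 FPKM. On chromosome 9, Shisa5 was at 11.6, 11.1 and 42.1 FPKM. A run of 11 pregnancy-specific glycoprotein genes on chromosome 7 (18931156 to 19406940) reached at most 1.03 FPKM in the knockdown.

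On the maturing side the runs included the alpha-globin locus on chromosome 11 (32176599 to 32200873) and the beta-globin locus on chromosome 7 (110961037 to 111001721). The carbonic anhydrase genes on chromosome 3 (14766213 to 14900770) were called together, with Car1 at 13.4, 12.7 and 1.74 FPKM beside Car2. The metallothionein genes Mt4, Mt2 and Mt1 shared a run on chromosome 8 (96591853 to 96704227). Gsta4, a glutathione transferase, led a run of 5 on chromosome 9 (78039772 to 78194952) at 25.1, 40.6 and 5.81 FPKM. The related genes Gstp1 and Gstp2 on chromosome 19 ran the other way, at 26.6 and 26.0 FPKM in the maturing control and 85.7 and 82.7 FPKM in the knockdown, and their split is uncertain. Hemt1 and Gml on chromosome 15, similar neighbours, were at 10.2 and 8.21 FPKM in the maturing control, 17.1 and 13.9 in the proliferating control and listed at 0 in the knockdown.

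Genes of the cytoskeleton were called in both directions, 3 of 26 tested higher in the knockdown and 5 higher in the maturing control in the authors' deposited table. Anxa5, a relative of annexin A2, was at 0.340, 0.479 and 2.37 FPKM in the maturing control, the proliferating control and the knockdown. Lmna, which encodes the nuclear lamins A and C, was at 54.0, 41.4 and 20.5 FPKM. Cnn3, a calponin that binds actin, was at 5.20, 9.09 and 0.0178 FPKM. Beta-actin (Actb) was at 267, 337 and 248 FPKM and was not called. Past the end of the block, 98 of 2063 measured genes (4.75%) were at least 2-fold higher in the knockdown and 62 (3.01%) at least 2-fold higher in the maturing control, on the scale of FPKM + 1. Among them the amino acid transporter Slc7a8 was at 0.0568, 1.53 and 62.9 FPKM and its partner chain Slc3a2 at 18.4, 28.8 and 74.2 FPKM. Slc7a5, which carries leucine with the same partner, was at 28.1, 55.4 and 81.8 FPKM. All 3 were highest in the knockdown, and no test of them is in the block.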

How the data were processed

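RNA sequencing of mouse erythroblasts was analysed from 1 deposited table of pairwise comparisons. Per the submitters' processing notes, Cuffdiff, Cufflinks 2.0.2 and FastQC 0.10.1 were used with mm9. Which aligner and annotation were used is not stated there. The authors' level per library was read as FPKM, and log2 ratios, statistics, p-values and q-values were used as deposited. Genes with a level of 0 have a placeholder ratio and get none here. The block's rows were selected by its 2 library names. The table ends after 65536 lines with its header, and 25 gene names are date-like. Own ratios used FPKM + 1. Genes at 1 FPKM or more in a compared library count as measured. The 30 gene lists (690 entries, 5 without a row), members and rules were chosen with earlier results of these data known. Named genes were Setd8, Gata2, the 12 highest and 12 lowest ratios among called genes at 5 FPKM or more, up to 4 called genes per list, the 2 highest of a list without a call, and 8 genes called here alone. Members that were not called, genes in runs, further list members and genes past the block were chosen after their values were seen. Genes that the rule takes and that are not in the text are not reported here. No test of conditions was possible with 1 library per group. Alternatives changed the q, filters, pseudocount (0.1, 5), scaling and mean; a filter on the proliferating control was added after seeing the data. The 2-fold counting and the median ratio were tested on simulated data with known changes. The matching of list members and the list medians were not. Python 3.11.15, numpy 2.4.6, pandas 2.3.3 and matplotlib 3.10.9 were used.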

Additional observations from a re-analysis of the deposited data

How the results depend on the processing

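No paired analysis was possible because each group had 1 library, and for the same reason no replicate could be left out. Calls higher in the knockdown (667) and higher in the maturing control (405) numbered 543 and 318 at a q of at most 0.01, 356 and 204 with a log2 ratio of at least 1, 399 and 228 at 1 FPKM, 209 and 131 at 5 FPKM, and 195 and 214 with the filter on the proliferating control; the last 4 pairs test fewer genes or ask for a larger ratio. The 2-fold counts (450 and 275) were 628 and 409 with a pseudocount of 0.1, 168 and 110 with one of 5, 282 and 193 at 5 FPKM, 649 and 353 on the TPM scale, and 262 and 262 with the filter on the proliferating control. The FPKM summed to 177393 in the maturing control and 169992 in the knockdown, below the TPM total. The pseudocount of 1 therefore weighed less on the TPM scale, and that setting changed more than the scaling. Scalings moved the median ratio of all measured genes by 0.03 to 0.05. Of 286 list medians under alternatives, 14 in 6 lists changed sign, and the cause was not tested. Erythropoietin targets (-0.53) went to 0.017 with members past the block. Glucocorticoid-induced genes (0.07) went to -0.83 at 5 FPKM, -0.38 with the control filter and -0.27 as a mean, and unfolded protein genes (0.01) to -0.23 as a mean. Autophagy (-0.06) went to 0.0037 when centred, 0.00037 with an equal upper quartile and 0.0011 on the TPM scale, and ribosome biogenesis (-0.05) to 0.0092, 0.0058 and 0.0067 under the same settings. Cytoskeleton genes (0.00) went to -0.053 at 5 FPKM and to -0.053 with the control filter, and to -0.21 as a mean. None of the 103 named genes changed sign while called, but this gives no support. A pseudocount cannot change the sign of a ratio, and the scalings moved ratios little. Genes that were not called were not counted as changed.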
